A study of Mus musculus with 4 samples.

Results

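A set of 47 homeobox genes that lie outside the HOX clusters was followed in mouse embryonic stem cells before and after all-trans retinoic acid (ATRA). The members were a fixed list of gene symbols, and all 47 had a row among the 23420 genes of the deposited count tables. The compared groups were wild type E14 cells, a feeder-free stem cell line kept with leukemia inhibitory factor (LIF), after 24 h with 1 µM ATRA (2 libraries), and the same cells at 0 h as control (2 libraries). Because the controls were taken at 0 h, an effect of ATRA and an effect of 24 h in culture cannot be told apart. The vehicle was dimethyl sulfoxide, and the labels leave unsaid whether control cells were given it. The dose follows the titles and protocol, although the treatment field writes it as millimolar. The protocol also covers embryoid bodies grown without LIF, and whether LIF was present during the 24 h is not stated; the titles call all 4 samples stem cells. Separate cultures are not named for the 2 replicates of a group, so each p-value reflects how far these libraries spread, possibly for technical reasons. The comparison asks which of these genes are detected in undifferentiated cells and which differ after ATRA.

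Homeobox genes encode transcription factors that bind DNA through a homeodomain, and they fall into classes such as LIM, paired (PRD), POU, CUT, SINE, zinc-finger (ZF) and Antennapedia (ANTP). Outside the HOX clusters, many are switched on in restricted stretches of the early neural tube: some mark the forebrain, others the midbrain and hindbrain border, the ventral spinal cord or a class of motor neuron. Retinoic acid is known to give neural tissue a more posterior character, and several of these genes respond to it in embryos. A smaller number of homeobox genes are active in most dividing cells.

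Gene counts totalled 13337972 and 11086233 in ATRA replicates 1 and 2, and 31005634 and 21484812 in control replicates 1 and 2. A count of 3, the most that an observed 0 allows, stood for 0.212 and 0.309 CPM (counts divided by the TMM-scaled library size) in the ATRA libraries and for 0.094 and 0.134 CPM in the controls. These limits, and the counting intervals given below, cover counting error only. The retinoic acid targets Rarb, Cyp26a1, Stra8 and Hoxb1 summed to 627 and 813 CPM with ATRA, against 11.0 and 12.2 CPM in the controls. The 6 stem cell markers Pou5f1, Nanog, Sox2, Zfp42, Esrrb and Utf1 each reached 1 CPM in all libraries, and summed to 836 and 739 CPM with ATRA, against 2747 and 2713 CPM in the controls. Pou5f1, the largest part of the control sums, was at 307 and 106 CPM with ATRA, against 1279 and 1251 CPM. Sox2 overlapped between the groups, at 136 and 273 against 229 and 217 CPM. Nanog, Zfp42, Esrrb and Utf1 were lower in both ATRA libraries. Of the other marker lists, the sums with ATRA and in the controls were 279 and 388 against 270 and 227 CPM for 5 neural progenitor genes, 286 and 253 against 470 and 500 CPM for 5 neuron genes. They were 55.2 and 82.6 against 26.2 and 26.9 CPM for 6 primitive endoderm genes, 18.1 and 26.2 against 181 and 154 CPM for 5 mesoderm genes, 103 and 103 against 209 and 149 CPM for 5 fibroblast genes, and 9.4 and 8.97 against 6.52 and 6.86 CPM for 5 trophoblast genes. Of the fibroblast genes, Col1a1 was lower with ATRA, Dcn and Lum were higher, and Col1a2 and Col3a1 overlapped. Of the trophoblast genes, Gcm1 and Plac1 were higher, Ascl2 was lower, and Elf5 and Hand1 overlapped. Gata4 of the primitive endoderm genes overlapped and the others were higher. Mesp1 of the mesoderm genes overlapped and the others were lower. Of the neural progenitor genes, Sox1 was at 23.8 and 30.7 CPM with ATRA, against 1.6 and 1.56 CPM in the controls. Pax6 was at 39.9 and 62 against 19.3 and 18 CPM. Nes made up most of the sum and overlapped between groups, as did Fabp7. Hes5 had 0 counts in both ATRA libraries and 5 and 1 in the controls. Of the neuron genes, Dcx was higher with ATRA, Tubb3, Elavl3 and Stmn2 were lower, and Map2 overlapped. All these marker directions are from CPM without the correction for GC content described below. With it, the log2 fold change went from -0.78 to -0.02 for Elavl3, from -1.86 to -0.14 for Col1a1 and from 0.16 to 1.48 for Nes. Dcx, Tubb3 and Stmn2 kept their directions, at 2.69, -1.32 and -1.09. None of these markers was at 0 in all 4 libraries, and their part in the results below was not tested.

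After 24 h of ATRA, 18 of the 47 members were detected, meaning at least 1 CPM in both libraries, and 18 were also detected at 0 h. Over all genes the same level was reached by 53% with ATRA and by 55.5% at 0 h, against 38.3% of the members in each group. Of the 47, 15 were detected in both groups. Lhx2, Emx2 and Lmx1a were detected with ATRA and not at 0 h, while En1, Nkx6-2 and Phox2a were detected at 0 h and under 1 CPM in at least 1 ATRA library. At most 3 counts over the group, the floor, were found for 12 members with ATRA and for 5 at 0 h (Emx1, Nkx6-1, Dbx1, Hmx2 and Pou3f3). The ATRA libraries were the shallower ones. Dbx1, a regulator of interneuron progenitors, and Hmx2, an inner ear gene, had 0 counts in all 4 libraries.

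**Figure D1:**
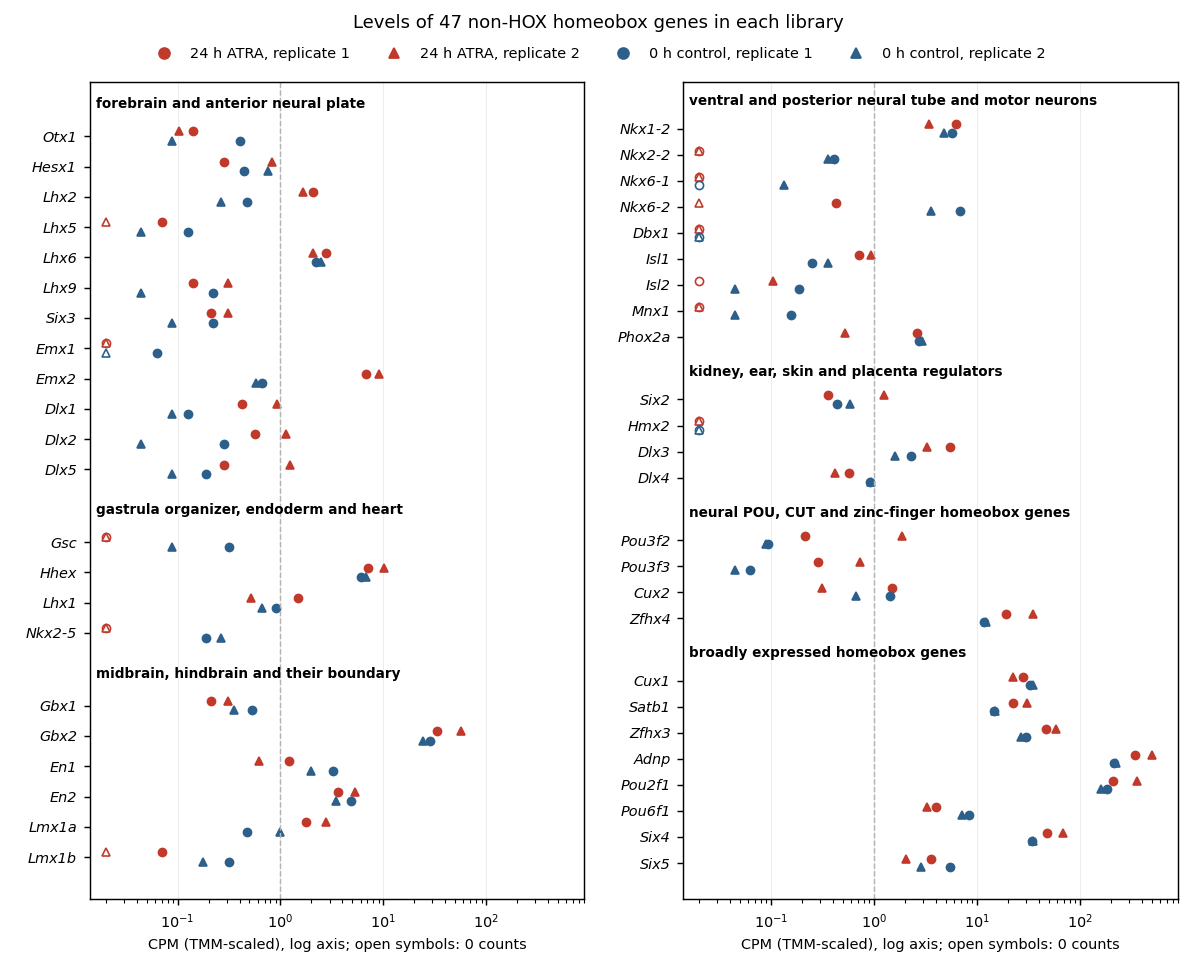
Level of each of the 47 members in every library, in CPM on a log axis, grouped by the role for which the gene is known. Circles and triangles are replicates 1 and 2, open symbols stand for 0 counts, and the dashed line marks 1 CPM, which 18 members passed in both libraries of each group.

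Compared per kilobase of merged exons, the levels at 0 h spanned a wide range, and 8 members known for expression in many cell types were all detected. Adnp, a zinc-finger homeobox gene needed for neural tube closure, stood highest at 78.9 CPM per kb with ATRA and 41.2 CPM per kb at 0 h. Gbx2, which sets the midbrain-hindbrain border and is also active in naive stem cells, had 20.7 CPM per kb with ATRA and 12.2 CPM per kb at 0 h. Pou2f1, the widely expressed octamer-binding factor Oct1, had 17.1 CPM per kb with ATRA and 10.4 CPM per kb at 0 h. Six4 followed with 5.36 CPM per kb with ATRA and 3.19 CPM per kb at 0 h. All other members were under 3 CPM per kb in both groups. In the remaining role groups the highest members at 0 h were Nkx6-2 (0.111 CPM per kb with ATRA, 2.74 at 0 h), Hhex (1.71 with ATRA, 1.27 at 0 h), Zfhx4 (1.72 with ATRA, 0.763 at 0 h), Dlx3 (1.69 with ATRA, 0.746 at 0 h) and Lhx6 (0.501 with ATRA, 0.491 at 0 h).

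Emx2 rose with ATRA and was the member that passed the test in the comparison without GC correction. Of the 28 members that passed the filter on low counts, 1 rose and 0 fell (quasi-likelihood test of edgeR, adjusted p under 0.05 by Benjamini-Hochberg over all genes), and 14 had an unadjusted p under 0.05. Over all 14256 genes tested, 1.13% were called and 41.7% had an unadjusted p under 0.05. In this bulk RNA, fewer cells expressing a gene and less RNA per cell cannot be told apart. The median log2 fold change of the tested members was 0.49, ATRA over control, against -0.02 over all genes tested. Both ATRA libraries lay above both controls for 14 of the 28 members, against 40.0% of all genes tested, and below both for 6, against 41.5%. Lhx2, Dlx2 and Isl1 passed the filter on low counts through their ATRA libraries, and Nkx6-2 through its controls. The median and these counts therefore depend in part on the filter. Among untested members, Dlx1, Dlx5, Pou3f2 and Pou3f3 lay above both controls. Gsc, Nkx2-5, Gbx1, Lmx1b, Nkx2-2 and Mnx1 lay below both, all at low counts. No share over other untested genes was computed, so the directions of these untested members have no background. They are from CPM without GC correction. GC contents ran from 44.4% to 54.7% for those above and from 55.7% to 67.1% for those below. Over all genes tested, the uncorrected fold change fell with GC content, as given below. The part of GC content in these directions was not tested. DESeq2 called 6 members, 5 higher (Adnp, Emx2, Lhx2, Pou3f2 and Zfhx4) and 1 lower (Nkx6-2), where it called 30.1% of all genes with an adjusted p.

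The 2 ATRA libraries differed from each other along the GC content of the transcripts, and the members are on the GC-rich side. The log2 ratio of ATRA replicate 2 to replicate 1 had a median of 0.85 in the most AT-rich decile of genes and of -1.31 in the most GC-rich one. The uncorrected fold change between the groups followed the same order, with medians of 1.03 and -1.72 in those deciles. Tested members had a median transcript GC content of 54.4%, against 50.2% for all genes tested, and 14 of 28 were above 55%, against 24.8% of all genes. A GC correction was therefore fitted per library, and its fold change is given beside the uncorrected one. It brought the medians of all deciles to within 0.04 of 0, and it also takes out any GC-related difference that the groups themselves may have. With it, 6 of the 28 members rose and 0 fell (21.4%), where 16.3% of all genes were called, 8.56% higher and 7.72% lower. An unadjusted p under 0.05 was then found for 15 members and for 38.2% of all genes. The members' median log2 fold change was then 0.86, against 0.01 over all genes, and it depends in part on the same filter.

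**Figure D2:**
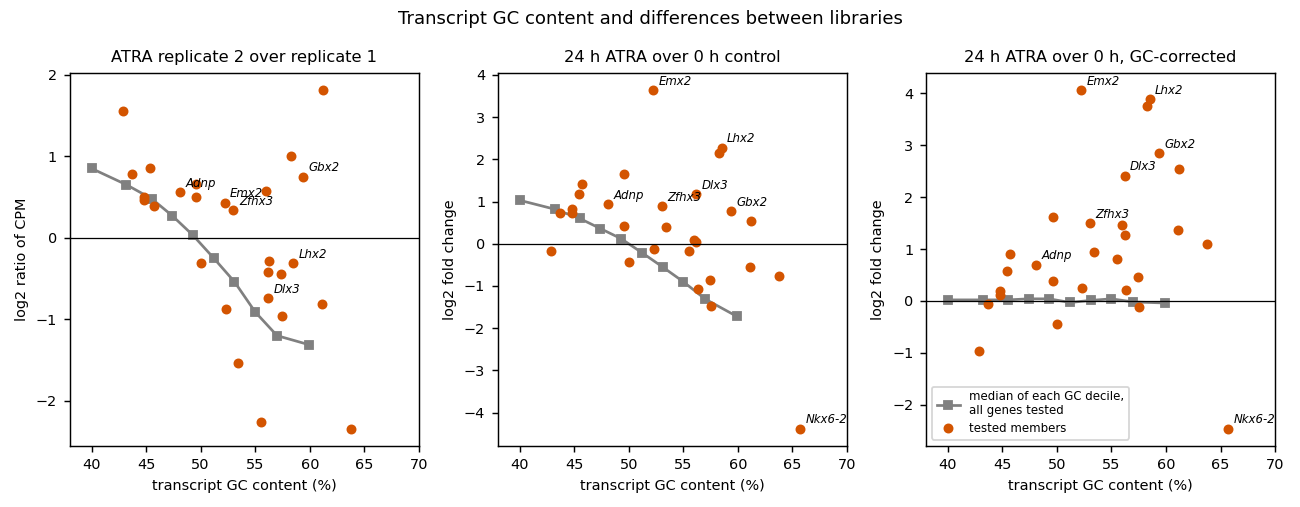
Log2 ratios plotted against transcript GC content (%), for ATRA replicate 2 over replicate 1 (left), 24 h ATRA over 0 h control (middle) and the same after GC correction (right). Orange points are the tested members (Nkx6-2 is missing at the left, with 0 counts in ATRA replicate 2), and the grey line gives the median of each GC decile of all genes, which runs to -1.72 in the middle panel and stays within 0.04 of 0 in the right one.

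The 6 members called after GC correction were Emx2, Lhx2, Gbx2, Dlx3, Zfhx3 and Adnp. The log2 ratio of ATRA replicate 2 to replicate 1 was 0.75 for Gbx2, 0.43 for Emx2 and 0.34 for Zfhx3. The medians of their GC deciles were -1.31, -0.54 and -0.54, so these genes ran against the trend that the correction takes out. For Lhx2, Dlx3 and Adnp the ratio had the sign of the decile. In the GC-corrected fit 0 of them were called without control replicate 1 or 2, where 0.245% and 0.173% of all genes were called. All 6 were called without ATRA replicate 1 or 2, but so were 44.6% and 33.7% of all genes, so little can be read from those calls. In the uncorrected fit, Nkx6-2 (lower) was the 1 member called without control replicate 1, where Emx2 did not pass and 0.874% of all genes were called. Without control replicate 2 the 2 called members were Emx2 and Nkx6-2, with 4.59% of all genes called. A lone library in such a fit is assumed to vary like the other group.

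**Figure D3:**
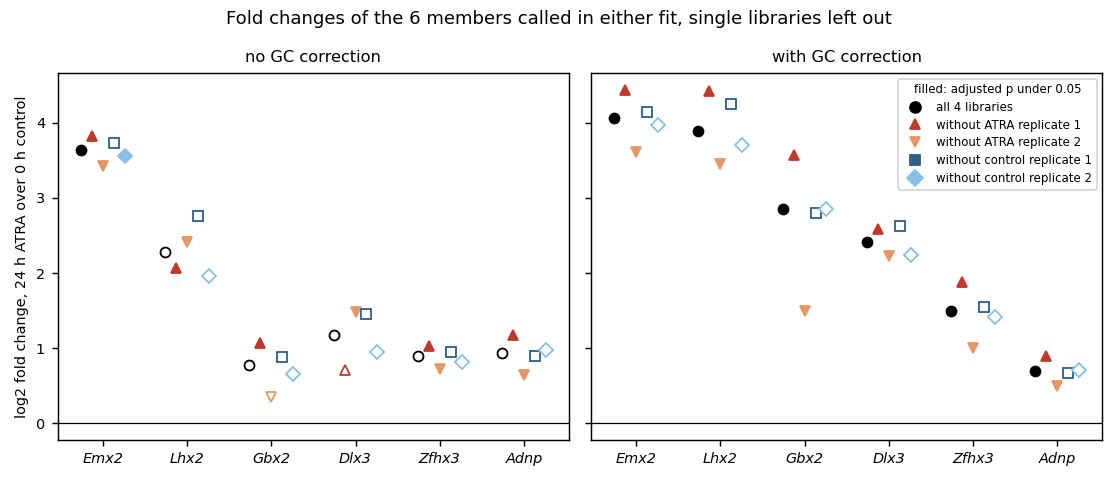
Log2 fold change (24 h ATRA over 0 h control) of the 6 members called with all 4 libraries in either fit, with all libraries and with each single library left out, without GC correction (left) and with it (right). Filled symbols have an adjusted p under 0.05; every value is above 0, and Gbx2 without GC correction is lowest at 0.35.

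Among the 12 genes of the forebrain and anterior neural plate, 5 were tested, 1 rose without GC correction and 2 with it. Emx2, which patterns the cerebral cortex and is needed for the urogenital tract, lies on chromosome 19 from 59458372 to 59465357, plus strand (GENCODE M21, GRCm38). It had 6.71 and 9.08 CPM with ATRA, against 0.658 and 0.579 CPM in the controls. Both ATRA libraries were more than 10 times the level of either control. The log2 fold change was 3.64 ± 0.42 (SE, edgeR adjusted p = 0.0343), and 4.06 ± 0.41 after GC correction (edgeR adjusted p = 0.0108). Without control replicate 1 the uncorrected value was 3.73 and did not pass (edgeR adjusted p = 0.0725). Part of its exons, 264 of 3002 bases, overlaps the antisense gene Emx2os, which had 3 and 0 counts with ATRA and 2 and 0 counts in the controls. Emx1, its paralog, had 0 counts with ATRA and 2 counts at 0 h.

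Lhx2, a LIM homeobox gene of the eye field and cortex, lies on chromosome 2 from 38339281 to 38369733, plus strand. It had 2.05 and 1.65 CPM with ATRA, against 0.47 and 0.267 CPM in the controls, so the groups did not overlap. Its log2 fold change was 2.28 ± 0.49 (edgeR adjusted p = 0.0649) and 3.89 ± 0.53 after GC correction (edgeR adjusted p = 0.0181). Without GC correction it passed in the fits lacking ATRA replicate 1 or 2, where 69.0% and 48.9% of all genes were called, and did not pass without control replicate 1 or 2 (edgeR adjusted p = 0.226 and 0.254). With a GC content of 58.5% it is in the decile whose uncorrected median was -1.72. Dlx2, a gene of forebrain interneurons, had 0.565 and 1.13 CPM with ATRA, against 0.282 and 0.0445 CPM in the controls, and its log2 fold changes of 2.14 and 3.76 did not pass (edgeR adjusted p = 0.107 and 0.0677). Lhx6, which specifies cortical interneurons, was at 2.76 and 2.06 CPM with ATRA, against 2.23 and 2.49 CPM in the controls, and the groups overlapped (log2 fold changes 0.05 and, GC-corrected, 1.27). Hesx1, a gene of the anterior plate and pituitary, was at 0.283 and 0.825 CPM with ATRA, against 0.439 and 0.757 CPM in the controls, also with overlap (log2 fold changes -0.18 and, GC-corrected, -0.97).

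The other 7 anterior genes did not pass the filter on low counts. Dlx1, which lies 9.4 kb from Dlx2 on chromosome 2 in the opposite orientation, had 15 counts with ATRA and 6 at 0 h, 5.7-fold higher (95% counting interval 2.09 to 17.9). Dlx5 had 16 counts with ATRA and 8 at 0 h, 4.56-fold higher (interval 1.84 to 12.3). ATRA replicate 2 held 12 of those counts, and ATRA replicate 1, at 0.283 CPM, was close to control replicate 1 at 0.188 CPM. For Otx1, Lhx5, Lhx9 and Six3 the interval of the ratio included 1. Otx1, a head patterning gene, had 3 counts with ATRA and 15 at 0 h, and the eye-field gene Six3 had 6 with ATRA and 9 at 0 h.

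Of 6 midbrain and hindbrain genes, 4 were tested, with 0 called before GC correction and Gbx2 called higher after it. Gbx2, on chromosome 1 from 89927956 to 89931179, minus strand, had 33.6 and 56.5 CPM with ATRA, against 28.6 and 24.4 CPM in the controls. The groups did not overlap, but ATRA replicate 1 was close to control replicate 1. Its log2 fold change was 0.77 ± 0.35 (edgeR adjusted p = 0.149), and 2.85 ± 0.67 after GC correction (edgeR adjusted p = 0.0469). With only ATRA replicate 2 kept, the GC-corrected value of Gbx2 was 3.57, and with only replicate 1 kept it fell to 1.49. The GC content of 59.4% places the gene in the uppermost decile, whose median replicate ratio was -1.31 (log2, ATRA replicate 2 over 1). Gbx2 itself had 0.75, so it ran against the trend being corrected, and its SE rose from 0.35 to 0.67. Exons of the opposite-strand gene D130058E05Rik cover 946 of the 2177 exon bases of Gbx2. That gene has no count row, so its reads cannot be told apart where counting ignored strand.

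Lmx1a, a LIM homeobox gene of the roof plate and midbrain dopamine neurons, was at 1.77 and 2.78 CPM with ATRA, against 0.47 and 0.98 CPM in the controls. Its log2 fold changes of 1.66 and 1.62 were alike in both fits and did not pass (edgeR adjusted p = 0.0861 and 0.0787). En1, a gene of the midbrain-hindbrain border, was at 1.2 and 0.619 CPM with ATRA, against 3.23 and 2 CPM in the controls. Both ATRA libraries lay below both controls, yet the log2 fold change was -1.48 (edgeR adjusted p = 0.0963) without GC correction and -0.11 with it. Its paralog En2 was at 3.6 and 5.36 CPM with ATRA, against 4.83 and 3.47 CPM in the controls, with log2 fold changes of 0.09 and, GC-corrected, 1.46 that did not pass. Gbx1 had 6 counts with ATRA and 25 at 0 h, and Lmx1b had 1 with ATRA and 14 at 0 h. The ratio intervals of both included 1.

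Of 9 genes of the ventral and posterior neural tube and of motor neurons, 4 were tested and 0 passed in either fit. Nkx6-2, a ventral progenitor and oligodendrocyte gene on chromosome 7 from 139579376 to 139582797, minus strand, was singled out after its values were seen. It had 0.424 and 0 CPM with ATRA, that is 6 and 0 counts, against 6.83 and 3.61 CPM in the controls, from 218 and 81 counts. The log2 fold change was -4.38 ± 0.84 (edgeR adjusted p = 0.0597) and -2.46 ± 0.66 after GC correction (edgeR adjusted p = 0.0555). It passed with relative log expression factors in place of TMM factors (edgeR adjusted p = 0.0469, with 4.23% of all genes called), with DESeq2 (adjusted p = 3.79e-05) and in each of the 4 uncorrected fits that lacked 1 library. After GC correction it did not pass without control replicate 1 or 2 (edgeR adjusted p = 0.287 and 0.21), and it passed where ATRA replicate 1 or 2 was left out. Its GC content of 65.7% is the highest of the tested members. Nkx6-2 shares 246 of 1907 exon bases with Inpp5a on the other strand, which had 25.9 and 20.4 CPM with ATRA, against 31.4 and 33 CPM in the controls.

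Nkx1-2, a gene of the caudal neural plate, was at 6.22 and 3.4 CPM with ATRA, against 5.77 and 4.81 CPM in the controls, with overlap (log2 fold changes -0.12 and, GC-corrected, 0.24). Isl1, a LIM gene of motor neurons and heart progenitors, had 0.707 and 0.928 CPM with ATRA, against 0.251 and 0.356 CPM in the controls, and its log2 fold changes of 1.42 and, GC-corrected, 0.91 did not pass (edgeR adjusted p = 0.11 and 0.237). Phox2a, which specifies noradrenergic and cranial motor neurons, had 2.62 and 0.516 CPM with ATRA, against 2.76 and 2.94 CPM in the controls. A single ATRA library of Phox2a was low, and its log2 fold change was -0.77 without and 1.10 with GC correction. It shares 95 of 2035 exon bases with Inppl1 on the other strand, at 94.9 and 54 CPM with ATRA, against 132 and 119 CPM in the controls. Nkx2-2, the ventral floor progenitor gene, had 0 counts with ATRA and 21 at 0 h. That is at least 3.07-fold lower when ATRA is set at the floor (3 counts summed over both libraries). This fold is not GC-corrected, and the part in it of the GC content, 55.7%, was not tested. Mnx1 and Isl2, both motor neuron genes, and Nkx6-1 had 0 to 1 counts with ATRA and 3 to 7 counts at 0 h.

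Of the 4 genes known from the gastrula organizer, endoderm and heart, the 2 tested did not pass in either fit. Hhex, a gene of the anterior endoderm, was at 7.14 and 10.1 CPM with ATRA, against 6.02 and 6.81 CPM in the controls. Its log2 fold changes of 0.42 and 0.38 were close in both fits (edgeR adjusted p = 0.376 and 0.317). Lhx1, needed for the head organizer, was at 1.48 and 0.516 CPM with ATRA, against 0.909 and 0.668 CPM in the controls, with log2 fold changes of 0.40 and, GC-corrected, 0.95. Gsc, the organizer gene goosecoid, and Nkx2-5, the cardiac factor, each had 0 counts with ATRA and 12 at 0 h, at least 1.75-fold lower with ATRA at the same floor. Neither fold is GC-corrected, and the GC contents are 66.6% for Gsc and 67.1% for Nkx2-5. All genes tested in the most GC-rich decile had an uncorrected median log2 fold change of -1.72, a larger fall than 1.75-fold. The part of GC content in these 2 differences was not tested.

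Dlx3, which acts in placenta and skin, lies on chromosome 11 from 95120119 to 95125296, plus strand. It had 5.51 and 3.3 CPM with ATRA, against 2.29 and 1.6 CPM in the controls, without overlap. The log2 fold change was 1.18 ± 0.43 (edgeR adjusted p = 0.102), and 2.41 ± 0.31 after GC correction (edgeR adjusted p = 0.0161). Dlx4 lies 15.2 kb away in the opposite orientation, and was at 0.565 and 0.413 CPM with ATRA, against 0.909 and 0.935 CPM in the controls. Its log2 fold change was -0.87 without and 0.46 with GC correction, and neither passed (edgeR adjusted p = 0.217 and 0.53). The difference between these neighbours was not tested. Six2, a kidney progenitor gene, was at 0.353 and 1.24 CPM with ATRA, against 0.439 and 0.579 CPM in the controls, with overlap, and its log2 fold changes of 0.55 and, GC-corrected, 2.54 did not pass.

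Zfhx4, a large zinc-finger homeobox gene of the nervous system, was at 19.3 and 34.9 CPM with ATRA, against 11.7 and 12.3 CPM in the controls. The libraries did not overlap and the log2 fold changes were 1.17 and 0.57 (edgeR adjusted p = 0.0884 and 0.0957). Cux2, a gene of upper-layer cortical neurons, was at 1.48 and 0.309 CPM with ATRA, against 1.44 and 0.668 CPM in the controls, with log2 fold changes of -0.16 and, GC-corrected, 0.80. Pou3f2 and Pou3f3, the POU genes Brn2 and Brn1 of neural progenitors, did not pass the filter on low counts, and Pou3f2 was called higher by DESeq2, whose own filter kept it. Pou3f2 had 3 and 18 counts with ATRA, against 3 and 2 counts in the controls, 9.57-fold higher over the groups (interval 3.51 to 32.5). ATRA replicate 2 held most of those counts. Pou3f3 had 11 counts with ATRA and 3 at 0 h, 8.36-fold higher (interval 2.21 to 46.7).

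All 8 broadly expressed members were tested; 0 passed without GC correction, and Zfhx3 and Adnp were higher with it. Zfhx3 (ATBF1), on chromosome 8 from 107942644 to 108961630, plus strand, had 46.6 and 58.9 CPM with ATRA, against 30 and 27 CPM in the controls. Its log2 fold change was 0.89 ± 0.29 (edgeR adjusted p = 0.0864), and 1.5 ± 0.30 after GC correction (edgeR adjusted p = 0.0363). Adnp, on chromosome 2 from 168180986 to 168207112, minus strand, had 341 and 504 CPM with ATRA, against 215 and 226 CPM in the controls, with log2 fold changes of 0.94 ± 0.30 (edgeR adjusted p = 0.0851) and 0.70 ± 0.15 (edgeR adjusted p = 0.0406). Both genes lay above the controls in each ATRA library. The same-strand model Gm20716 covers 4393 of the 5350 exon bases of Adnp and has no count row.

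None of the other 6 broadly expressed genes passed in either fit. Pou2f1 was at 209 and 359 CPM with ATRA, against 183 and 161 CPM in the controls. Its log2 fold change of 0.72 became -0.05 after GC correction, and 3007 of its 16597 exon bases overlap Cd247 on the other strand, which was at 58.2 and 108 CPM with ATRA, against 54.2 and 47.7 CPM in the controls. Six4, at 48.2 and 68.1 CPM with ATRA against 34.4 and 34.9 CPM in the controls, had log2 fold changes of 0.74 without and 0.11 with GC correction. Satb1, a chromatin organizer, was at 22.2 and 30.5 CPM with ATRA, against 14.6 and 15.1 CPM in the controls, with log2 fold changes of 0.83 and 0.20. These 3 genes are AT-rich, with GC contents of 43.7% to 44.8%. The GC-rich Pou6f1 and Six5 had log2 fold changes of -1.07 and -0.55 uncorrected and of 0.21 and 1.37 corrected. Cux1 was at 27.7 and 22.4 CPM with ATRA, against 33.1 and 35.1 CPM in the controls. Its log2 fold change was -0.44 in both fits and did not pass (edgeR adjusted p = 0.271 and 0.1).

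**Figure D4:**
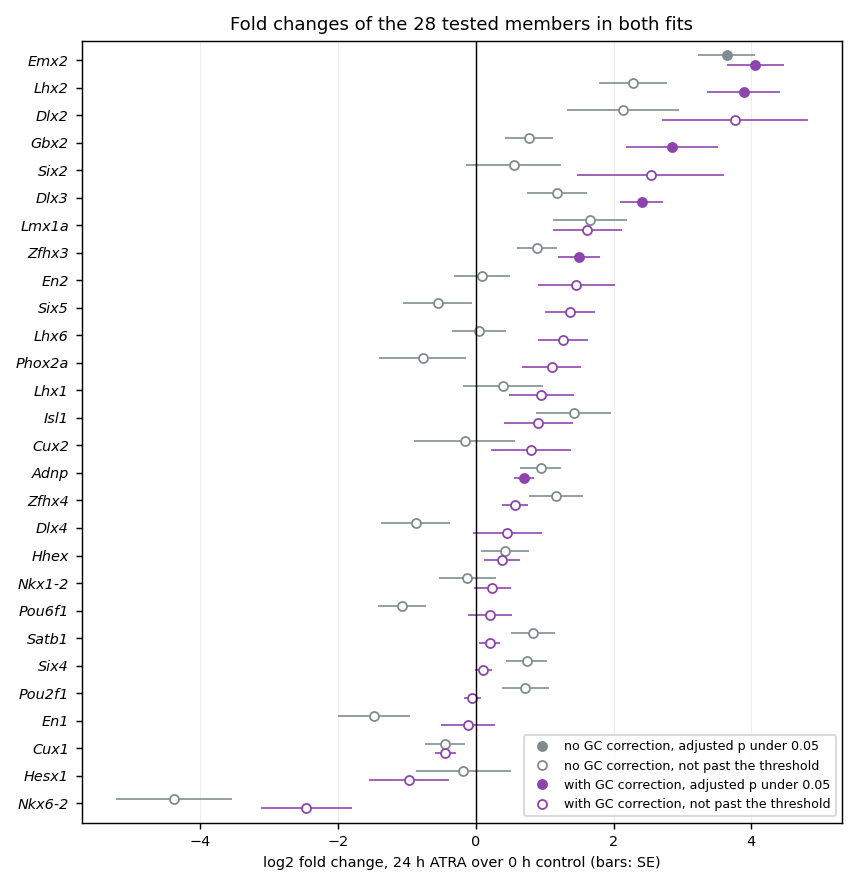
Log2 fold change (24 h ATRA over 0 h control) of the 28 tested members, with bars of 1 SE, without GC correction (grey) and with it (purple), in the order of the corrected values. Filled points have an adjusted p under 0.05: Emx2 in grey, and Emx2, Lhx2, Gbx2, Dlx3, Zfhx3 and Adnp in purple.

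The sequence before the start of 3 members called higher after GC correction is shown, to let the CpG content of such promoters be seen. RefSeq promoters (GRCm38.p6) were found for 39 of the 47 members, at 51 starts, and the 250 bases before each start were read. The median number of CpG dinucleotides in that window was 18 for the members, against 6 over 32851 promoters of all genes. The windows are chr2:38339031-38339280 (plus strand) for the first of 2 starts of Lhx2, chr1:89931177-89931426 (minus strand) for Gbx2 and chr2:168207113-168207362 (minus strand) for Adnp. They are given 5′ to 3′ with each CpG in capitals.
Lhx2: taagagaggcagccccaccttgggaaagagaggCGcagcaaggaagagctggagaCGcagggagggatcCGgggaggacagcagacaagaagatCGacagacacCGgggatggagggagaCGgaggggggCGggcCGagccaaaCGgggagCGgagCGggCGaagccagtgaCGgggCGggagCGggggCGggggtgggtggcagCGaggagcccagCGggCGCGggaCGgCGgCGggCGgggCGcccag
Gbx2: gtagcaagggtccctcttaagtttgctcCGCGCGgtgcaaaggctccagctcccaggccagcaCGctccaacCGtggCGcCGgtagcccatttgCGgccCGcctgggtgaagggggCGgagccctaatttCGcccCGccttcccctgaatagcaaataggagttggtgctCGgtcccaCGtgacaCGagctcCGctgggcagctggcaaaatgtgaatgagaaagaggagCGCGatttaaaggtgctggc
Adnp: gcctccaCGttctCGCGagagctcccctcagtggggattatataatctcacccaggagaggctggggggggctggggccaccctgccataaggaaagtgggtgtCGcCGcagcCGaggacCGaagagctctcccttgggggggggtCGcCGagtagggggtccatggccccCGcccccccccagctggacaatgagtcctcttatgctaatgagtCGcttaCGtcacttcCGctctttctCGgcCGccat
The Lhx2 window holds 25 CpG dinucleotides, the Gbx2 window 18 and the Adnp window 15. The window of Emx2 holds 24, and lies inside the longer GENCODE model of that gene. Both strands were searched for hexamers known as retinoic acid receptor half-sites. AGGTCA occurred in 2 of the 51 member windows and in 14% of all promoters. GGGTCA occurred in 3 member windows and in 11.6% of all promoters. The related AGTTCA occurred in 7 member windows and in 11.8% of all promoters, and GGTTCA in 1 and in 8.85%. Any of the 4 was found in 12 of the 51 windows and in 38.6% of all promoters. Direct repeats of them, which contain the half-sites, were found in 0 member windows at spacings of 1, 2 and 5 bases, and in 0.164%, 0.174% and 0.0883% of all promoters. The homeodomain core TAATTA, which reads the same on both strands, was found in 0 member windows and in 4.84% of all promoters. None of these motifs occurred in the windows of the 5 called members that have an entry, which says only that these letters are not there.

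A further 107 homeobox genes outside the HOX clusters and the TALE class were listed for comparison, of which 104 had a row and 47 were tested. Of these, 3 rose and 2 fell without GC correction, and 14 rose and 6 fell with it, which is 10.6% and 42.6% of those tested. Over all genes tested, 1.13% and 16.3% were called. The median log2 fold change of the listed genes was 0.86 without and 0.80 with GC correction, over genes taken by the same filter on low counts. The list includes Pou5f1, Nanog, Mixl1 and Pax6, which also served as markers above and all passed with GC correction. Its share therefore depends in part on that choice. Msx1, a target of bone morphogenetic protein signalling, had 26.6 and 20.1 CPM with ATRA, against 2.44 and 2.27 CPM in the controls (log2 fold change 3.30, edgeR adjusted p = 0.0329, and 4.98 after GC correction). Tshz1, a zinc-finger homeobox gene, had log2 fold changes of 2.86 without and 3.52 with GC correction. Those of Otx2, the paralog of the member Otx1, were -4.59 and -4.97, and those of the primitive streak gene Evx1 were -5.94 and -4.33. These lists were chosen with results known, so the difference between their counts and those of the members was not tested.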

How the data were processed

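RNA was sequenced from 4 libraries. For each, the authors deposited raw whole-number counts of reads by gene symbol. Software named in the submitters' processing notes is TopHat2 2.0.7, HTSeq 0.6.0, Cufflinks 2.0.2 and Cuffdiff 2.0.2, and the genome named there is mm10; what each was used for is not stated. Which gene models were counted, and whether strand was used, is not given in the sources used here. Reads assigned to no counted feature made up 63.4% to 66.2% of all reads in the count tables and ambiguous reads 0.158% to 0.254%, and both were left out.

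Samples were grouped by their titles. The test was the F test of edgeR 4.0.16 (R 4.3.3) for ATRA against control: a robust quasi-likelihood fit with bias-adjusted dispersions, after TMM scaling and filtering by the package's expression rule. Adjustment was by Benjamini-Hochberg over 14256 genes with a threshold of 0.05, and the SE of a log2 fold change is its size over the root of F. For the GC correction, each library's deviation of log2 CPM (prior count 2) was fitted against transcript GC content by a spline with 5 degrees of freedom (MASS 7.3.60.0.1), and the fitted values entered as offsets. Only genes with a mean log2 CPM over 1 shaped the curve, and genes under that level took their offsets from it. The most extreme GC contents were drawn in to percentile limits. Gene models for lengths, GC content and coordinates were GENCODE M21 (GRCm38, which mm10 names), and all 47 members matched. Alternatives were DESeq2 1.42.0, other scaling and filters, a replicate block, and single libraries left out. The scripts were tested on simulated counts. Without a simulated GC trend, each fit gave 5 false calls among 166. With the trend fitted to these libraries, the uncorrected fit gave 2775 false calls among 2898, and the GC-corrected fit gave 4 among 161. The uncorrected fit of the deposited counts called 161 genes, so the simulated counts differed from them in this respect.

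Members past the threshold in either fit are given in full, with the highest 0 h level in each role group and members under the filter differing 10-fold in mean CPM; the remaining members are given by their values. Of the other homeobox genes called, those with the smallest p in each direction are named, and 1 result among them is not reported here. The members and lists were chosen with earlier results of these data known. Replicates differed by more than sampling noise in both groups (chi-square over its degrees of freedom 82.6 for ATRA and 10.4 for controls).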

Additional observations from a re-analysis of the deposited data

How the results depend on the processing

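The number of members called was 1 without GC correction, and was 1 again with no filter on low counts, with a filter of at least 1 CPM in 2 libraries, and with the older dispersion estimate, which was chosen after seeing the data. It was 2 with relative log expression factors, 6 with DESeq2, 6 with the GC correction, and from 0 to 19 with 1 library left out in either fit. The labels do not say whether equal replicate numbers pair libraries across the groups. The correlation of replicate deviations was 0.183 across genes, which with 2 pairs cannot decide it. With a replicate block 6 members were called, and 10 with block and GC correction. For all genes, 161 calls became 603 with relative log expression factors (38.5% of them higher, against 64% before), 86 with the older dispersion estimate, 4268 with DESeq2 (37.8% higher), 4401 with the block, 2321 with the GC correction (52.6% higher), 2638 with both, and from 25 to 10289 with a library left out. For the other homeobox genes, 5 calls became 9 with relative log expression factors, 22 with DESeq2, 26 with the block, 20 with the GC correction, 24 with both, and from 1 to 35 with a library left out. Members detected at 0 h were between 17 and 22 at other levels or with a control left out.

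The direction of 7 tested members turned with the GC correction, alone and with the block: Nkx1-2 (0.24 and 0.22), Phox2a (1.10 and 1.12), Dlx4 (0.46 and 0.52), Cux2 (0.80 and 0.67), Pou2f1 (-0.05 in both), Pou6f1 (0.21 and 0.20) and Six5 (1.37 in both). Over the fits lacking 1 library, with and without GC correction, 13 log2 fold changes took both signs. They ran between -1.45 and 0.51 for Hesx1, -0.19 and 1.67 for Lhx6, -0.66 and 1.22 for Lhx1, -2.13 and 0.17 for En1, and -0.22 and 2.15 for En2. They ran between -0.67 and 0.43 for Nkx1-2, -2.46 and 1.45 for Phox2a, -0.47 and 4.02 for Six2, and -1.16 and 0.99 for Dlx4. The range was -1.85 to 1.39 for Cux2, -0.16 to 1.04 for Pou2f1, -1.25 to 0.64 for Pou6f1 and -1.09 to 1.69 for Six5. For Dlx4, Phox2a and Six5 the signs were split by fit and not by the library left out. Without GC correction they ran from -1.16 to -0.68, -2.46 to -0.10 and -1.09 to 0.00. With it they ran from 0.23 to 0.99, 0.45 to 1.45 and 1.09 to 1.69. Why the signs of the others changed was not tested. The 19 members under the filter on low counts are limited by depth, most of all in the ATRA libraries.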
